A study of Mus musculus with 4 samples.

Results

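The exon junction complex is the set of proteins that the spliceosome leaves on an mRNA just upstream of each junction between joined exons. Its core is built by the helicase EIF4A3, which clamps the RNA, the heterodimer of MAGOH (or its paralog MAGOHB) and RBM8A (also called Y14), and CASC3. RNPS1, ACIN1, PNN and SAP18 make up the peripheral ASAP and PSAP assemblies, which associate with the core and take part in splicing regulation. The complex marks spliced mRNAs for export and translation, and in nonsense-mediated decay it labels transcripts whose stop codon lies upstream of a junction. The genes of these 9 proteins, 5 core members and 4 peripheral members, were followed here among 37718 gene rows. They were chosen by name as parts of the complex, with earlier results of these data known, and each was found through its Ensembl gene identifier. Together they hold 81 introns, 199 exon segments (the pieces into which overlapping transcripts cut a gene's exons), 113 annotated junctions and 5 unannotated junctions. The rows of 7 members stand alone, whereas Casc3 shares its row with Msl1, and Sap18 shares its row with the microRNA gene Mir3077.

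The study asked whether splicing is altered in mouse primary spermatocytes that lack TDRD6, a tudor domain protein of germ cells. The Tdrd6+/- and Tdrd6-/- genotypes were each represented by 2 samples of total RNA. Every sample came from the testes of at least 4 mice at 20 dpp, pooled before sequencing. Cells were collected by their surface hCD4, which in these animals is driven by the endogenous Tdrd6 promoter, so that controls and mutants both carry the hCD4 reporter and the controls have a single intact copy of Tdrd6. RNA was depleted of rRNA rather than selected for poly(A), and unspliced RNA was therefore counted alongside mRNA. Nothing beyond the pooling says how independent the samples of a genotype were, so the p-values measure the spread between these samples.

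The intron counting tallied 43778449 to 47221554 fragments per sample. Gene counts, which were made separately, summed to 26454326 and 29253182 in Tdrd6+/- and to 30486157 and 31388750 in Tdrd6-/-, higher in both Tdrd6-/- samples. Tdrd6 itself was counted 33220 and 39322 times in the Tdrd6+/- samples and 359 and 400 times in the Tdrd6-/- samples, a log2 fold change of -6.81 (SE 0.17, adjusted p = 8.40e-18, edgeR). Replicates correlated across genes with r = 0.9901 in Tdrd6+/- and r = 0.9922 in Tdrd6-/-. The share of fragments on introns was 30.95% and 27.11% in Tdrd6+/- and 27.43% and 21.94% in Tdrd6-/-, so that the Tdrd6-/- 2 sample lay below the others. The summed level of 10 spermatocyte markers was 3822 and 4092 CPM (gene counts divided by the TMM-scaled total of their sample) in the lower and the higher Tdrd6+/- sample and 2615 and 2684 CPM in Tdrd6-/-. Without Tdrd6, which is on that list, the sums overlapped, at 2410 to 2824 CPM against 2603 to 2671 CPM, although 3 of these 9 markers were called higher (Sycp1, Sycp2 and Spag6, at log2 fold changes of 0.60, 0.44 and 0.79) and 1 lower (Piwil1, -0.44). Spermatid markers summed to 9.78 to 14.3 CPM against 21.1 to 23.7 CPM in Tdrd6-/-, with 2 of 7 called higher. Spermatogonial markers gave 23.9 to 24.7 CPM against 28.5 to 32.7 CPM and Sertoli cell markers 56.8 to 72.4 CPM against 74.4 to 86.8 CPM, and no gene of these lists was called. The Sertoli cell markers did not move together. Amh, Cldn11 and Rhox5 were higher in both Tdrd6-/- samples, Sox9 was lower in both, and Wt1 and Aard overlapped. Leydig cell markers (17.1 to 21.2 against 19.8 to 22.1 CPM), peritubular markers (3.09 to 3.70 against 3 to 3.89 CPM) and blood cell markers (2.84 to 3.17 against 2.41 to 3.16 CPM) overlapped between genotypes. No marker on these lists was at 0 in all 4 samples. The part of cell composition and of the intronic share in the results below was not tested, and in bulk RNA fewer cells of a type cannot be told apart from less RNA per cell.

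None of the 9 genes was called as changed in Tdrd6-/- cells at the level of gene counts. At a false discovery rate of 0.1, edgeR called 794 of 16555 genes, or 4.80% of all genes tested, with 169 (1.02%) higher and 625 (3.78%) lower, and 0 of the 9 members. There were also 0 members at an unadjusted p under 0.05, and DESeq2 called 0 members as well. The members' median log2 fold change was -0.02, next to 0.01 over all genes, with 4 members above 0 and 5 below, and the values spanned -0.18 to 0.36. Both Tdrd6-/- samples lay above both Tdrd6+/- samples for 3 members (Eif4a3, Magoh and Sap18), where 20.1% of all genes did so, and below them for 1 member (Pnn), where 23.4% of all genes did so.

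**Figure D1:**
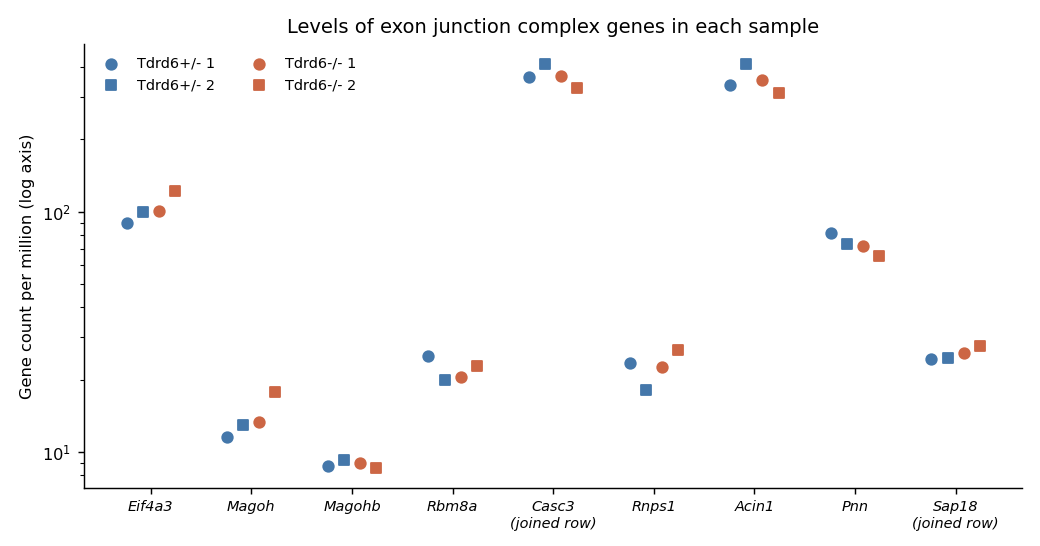
Gene levels in TMM-scaled CPM (log axis) for each of the 9 genes in each of the 4 samples, blue for Tdrd6+/- and orange for Tdrd6-/-, with circles for replicate 1 and squares for replicate 2. Casc3 and Acin1 lie highest and Magohb lowest, and the genotypes overlap for 5 of the 9 genes. The Casc3 and Sap18 values are those of joined rows.

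Eif4a3 (ENSMUSG00000025580, chr11:119288363-119300089, minus strand, mm10) encodes the ATP-dependent helicase that anchors the complex on RNA. Its count was 2347 and 2776 in Tdrd6+/- and 3205 and 3910 in Tdrd6-/-. After scaling these were 89.6 and 99.7 CPM against 101 and 122 CPM, so both Tdrd6-/- samples were higher, by a narrow margin in the case of Tdrd6-/- 1. The means were 94.6 ± 7.09 and 112 ± 14.7 CPM (SD, n = 2 each), and the log2 fold change of 0.24 (SE 0.14) did not pass the test (adjusted p = 0.481).

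Magoh (ENSMUSG00000028609, chr4:107879755-107887424, plus strand) and Magohb (ENSMUSG00000030188, chr6:131284388-131293244, minus strand) encode near-identical proteins that both pair with RBM8A. Their coding sequences can be told apart by reads, since 356 of 438 aligned coding bases (81.3%) are identical and the longest identical run is 17 bases. The window of 30 bases printed here, across the first coding junction of each gene, was chosen for having the most differences. The differences lie less densely over the whole coding sequence. Capitals mark the 10 bases at which the paralogs differ, and the sequences were read from GENCODE M21 transcripts on GRCm38.
Magoh (coding bases 68 to 97): agttTgaAttCcgAccTgacggTaaATtGC
Magohb (coding bases 74 to 103): agttCgaGttTcgGccGgacggGaaGCtTA
The Magoh window runs from chr4:107879925 to chr4:107880901 and the Magohb window from chr6:131289439 to chr6:131293092, in each case with an intron between the exons.

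Magoh was counted 300 and 358 times in Tdrd6+/- and 424 and 567 times in Tdrd6-/-, or 11.5 and 12.9 CPM against 13.4 and 17.7 CPM. Both Tdrd6-/- samples were higher, and Tdrd6-/- 2 stood apart from the other 3 samples. Its log2 fold change of 0.36 (SE 0.20, adjusted p = 0.465) was the largest among the 9 genes and did not pass the test. Magohb gave 228 and 258 counts in Tdrd6+/- and 286 and 276 in Tdrd6-/-, which after scaling was 8.71 and 9.26 CPM against 9.04 and 8.62 CPM. These values overlapped, and the log2 fold change was -0.02 (SE 0.21, adjusted p = 0.979). Per kilobase of exon, Magohb made up 25.4% and 24.4% of the sum of both paralogs in Tdrd6+/- and 23.2% and 17.9% in Tdrd6-/-. The share was lower in both Tdrd6-/- samples, by 4.35 percentage points between the means (24.9 ± 0.702% against 20.5 ± 3.75%), with an exact two-sided permutation p of 0.33, which is the smallest that 2 samples against 2 allow. By this measure Magoh supplied the greater part of the paralog pair in all 4 samples. The share depends on the annotated lengths, 1720 bases for Magohb and 770 for Magoh. Magohb segment 14, of 320 bases, had only 8 to 16 counts. Junction reads, which need no length, lay closer together. Magohb junctions 18 to 20 had 51 to 59 reads in Tdrd6+/- 1 and 54 to 69 in Tdrd6+/- 2. Magoh junctions 8 to 11 had 53 to 80 and 72 to 105. In Tdrd6-/- 1 and 2 these were 70 to 78 and 67 to 73 for Magohb, and 71 to 131 and 102 to 157 for Magoh.

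Rbm8a (ENSMUSG00000038374, chr3:96629933-96633791, plus strand) encodes Y14, the RNA-binding partner of MAGOH. Its counts were 654 and 555 in Tdrd6+/- and 652 and 725 in Tdrd6-/-. The scaled levels of 25 and 19.9 CPM enclosed those of Tdrd6-/- (20.6 and 22.7 CPM), and the log2 fold change was -0.05 (SE 0.18, adjusted p = 0.940). The copy Rbm8a2, whose coding sequence is identical to that of Rbm8a at 510 of 522 bases (97.7%), had 16, 13, 14 and 13 counts in Tdrd6+/- 1, Tdrd6+/- 2, Tdrd6-/- 1 and Tdrd6-/- 2. These counts are small beside those of Rbm8a.

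Casc3 (ENSMUSG00000078676, chr11:98804905-98833814, plus strand) encodes the core subunit also known as Barentsz or MLN51. The row that it shares with Msl1 held 9549 and 11445 counts in Tdrd6+/- and 11572 and 10501 in Tdrd6-/-, with overlapping levels and a log2 fold change of -0.16 (SE 0.13, adjusted p = 0.666). The row says little about Casc3 itself, because the 16 junctions of Casc3 alone summed to 748, 1045, 1051 and 928 counts while the 11 junctions of Msl1 summed to 2324, 2942, 2911 and 2529 (order of samples as for Rbm8a2). On the Casc3 junctions alone, an estimate added after the data had been seen, the log2 fold change was -0.09 (SE 0.17, adjusted p = 0.891).

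Of the peripheral members, Acin1 (ENSMUSG00000022185, chr14:54642161-54686931, minus strand), which encodes the scaffold of ASAP, had the most counts. It reached 8810 and 11426 in Tdrd6+/- and 11170 and 10025 in Tdrd6-/-, or 336 and 410 CPM against 353 and 313 CPM. The Tdrd6+/- samples differed more from each other than the genotype means did, and the log2 fold change was -0.16 (SE 0.14, adjusted p = 0.672). Pnn (ENSMUSG00000020994, chr12:59066884-59073998, plus strand) takes the place of ACIN1 in PSAP. It was counted 2139 and 2051 times against 2284 and 2087 times, or 81.7 and 73.6 CPM against 72.2 and 65.2 CPM. Pnn was the only member with both Tdrd6-/- samples lower, at a log2 fold change of -0.18 (SE 0.14, adjusted p = 0.646).

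Rnps1 (ENSMUSG00000034681, chr17:24414565-24425901, plus strand) and Sap18 (ENSMUSG00000021963, chr14:57798180-57806638, plus strand) encode the subunits that ASAP and PSAP have in common. Rnps1 counts were 614 and 507 in Tdrd6+/- and 710 and 853 in Tdrd6-/-, or 23.4 and 18.2 CPM against 22.5 and 26.7 CPM. The genotypes overlapped, with a log2 fold change of 0.24 (SE 0.18, adjusted p = 0.631). Sap18 counts were 637 and 685 against 820 and 883, or 24.3 and 24.6 CPM against 25.9 and 27.6 CPM. Its replicates lay close together, both Tdrd6-/- samples were higher, and the log2 fold change of 0.13 (SE 0.16, adjusted p = 0.816) was still not called. The copy Sap18b has the same coding sequence at all 516 bases, so reads within it cannot be assigned by sequence; its own row had 376 and 401 counts in Tdrd6+/- and 498 and 541 in Tdrd6-/- (log2 fold change 0.18, SE 0.19, adjusted p = 0.751). The Sap18 level is for that reason uncertain. The mean of the 9 genes' log2 CPM, each centred on its own mean, ran only from -0.0231 in Tdrd6+/- 1 to 0.0528 in Tdrd6-/- 2. Its shape over the 4 samples was most like that of Ndufb5, 1810043G02Rik and Bnip1 (Pearson r of at least 0.9999 each), but with 4 samples 598 of 12338 genes reached an r of 0.95.

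**Figure D2:**
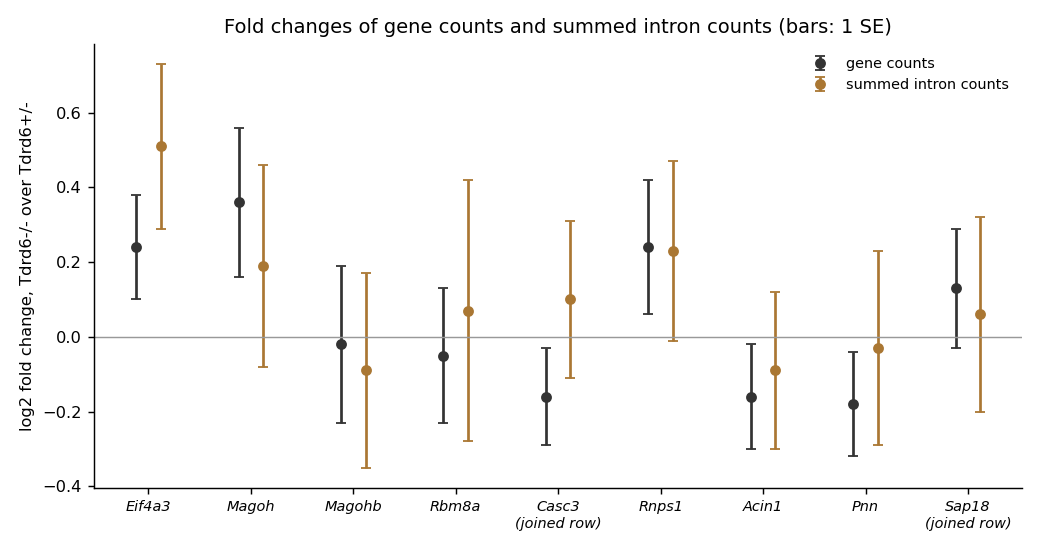
Log2 fold change of Tdrd6-/- over Tdrd6+/- for the gene counts (dark) and the summed intron counts (brown) of each gene, from edgeR, with bars of 1 SE. The gene estimates lie between -0.18 and 0.36, and the intron estimate of Eif4a3, at 0.51, is the farthest from 0.

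Between genes, levels were compared as CPM per kilobase of exon, as means ± SD over the 4 samples. Eif4a3 was the highest at 48.6 ± 6.44, followed by Acin1 at 33.6 ± 3.93, and their ranges did not overlap. Pnn at 21.0 ± 1.94 and Magoh at 18.0 ± 3.51 overlapped each other, as did Rnps1 at 11.8 ± 1.82 and Rbm8a at 8.46 ± 0.872. Magohb at 5.18 ± 0.173 and Sap18 at 4.71 ± 0.275 were lowest and overlapped too. The heterodimer partners of EIF4A3 were thus present at lower RNA levels per length than Eif4a3 itself in every sample. The order depends on the annotated lengths, such as 5439 bases for Sap18, 1720 bases for Magohb and 770 bases for Magoh. By junction reads, which need no length, Sap18 was not lowest. Its most-read junctions were 23, with 143 and 248 reads in Tdrd6+/- and 289 and 326 in Tdrd6-/-, and 24, with 88 and 170 against 160 and 221. In each sample both had more reads than any Magoh or Magohb junction. Casc3 was not placed because of its joined row.

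A change that all introns of a gene share would escape a test of single introns against the rest of the gene, so the intron counts were also summed per gene. Eif4a3 came closest to a change, with 413 and 457 intronic counts in Tdrd6+/- and 569 and 596 in Tdrd6-/-. Scaled to the intronic totals this was 32.7 and 37.8 CPM against 42.0 and 58.3 CPM, and both Tdrd6-/- samples were higher. The means were 35.2 ± 3.60 and 50.2 ± 11.5 CPM, a fold of 1.42, and the log2 fold change of 0.51 (SE 0.22) had an adjusted p of 0.305 in edgeR. It was called only when Tdrd6-/- 1 was left out (log2 fold change 0.72, adjusted p = 0.0491), a fit in which 1 sample is assumed to vary as the Tdrd6+/- samples do.

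For all other members the estimate for the summed introns was smaller than 1 SE. Magoh had 148 and 151 intronic counts against 156 and 166 (log2 fold change 0.19, SE 0.27), Magohb 15.9 and 15.4 CPM against 15.1 and 14.2 CPM (-0.09, SE 0.26) and Rbm8a 60 and 49 counts against 46 and 61 (0.07, SE 0.35). Acin1, the member with the most intronic reads of its own, had 3562 and 3458 against 3498 and 2822 (-0.09, SE 0.21). Rnps1 had 304 and 234 against 313 and 284 (0.23, SE 0.24), Pnn 258 and 176 against 207 and 194 (-0.03, SE 0.26) and Sap18 208 and 200 against 222 and 185 (0.06, SE 0.26). The Casc3 sum of 3980 and 4543 against 4654 and 4030 (0.10, SE 0.21) was mostly its intron 1, with 3312, 3986, 3975 and 3545 counts in the 4 samples. That intron, chr11:98804987-98809675, is 4689 bases long and holds 2518 bases of Msl1 exon, and without it the Casc3 estimate was -0.02 (adjusted p = 0.979). In all, edgeR called 0 of 9 members, with 1 at an unadjusted p under 0.05, and DESeq2 called 0, against 214 of 15025 genes (1.42%). The members' median log2 fold change was 0.07, as it was over all genes.

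Relative to the gene counts, intronic counts of several members were lower in both Tdrd6-/- samples, and the median gene followed the same order. Magohb, the member with the highest ratio, had 88.2 and 72.1 intron counts per 100 gene counts in Tdrd6+/- and 71.7 and 52.5 in Tdrd6-/-. Magoh had 49.3 and 42.2 against 36.8 and 29.3, Rnps1 had 49.5 and 46.2 against 44.1 and 33.3, and Sap18 had 32.7 and 29.2 against 27.1 and 21.0. Together with Rbm8a (9.17 and 8.83 against 7.06 and 8.41), 5 of the 9 members had both Tdrd6-/- samples below both Tdrd6+/- samples, where 38.0% of 13030 genes did. The median gene had 68.0, 61.7, 61.2 and 46.0 intron counts per 100 gene counts in Tdrd6+/- 1, Tdrd6+/- 2, Tdrd6-/- 1 and Tdrd6-/- 2, and so Tdrd6-/- 2 was low in general. Eif4a3 (17.6 and 16.5 against 17.8 and 15.2), Casc3 (41.7 and 39.7 against 40.2 and 38.4), Acin1 (40.4 and 30.3 against 31.3 and 28.1) and Pnn (12.1 and 8.58 against 9.06 and 9.30) were less separated between genotypes. The Casc3 ratio says little about Casc3 itself. Its intron counts were mostly on intron 1 (83.2% to 88.0%), which holds Msl1 exon, and its gene counts are those of the row joined with Msl1. When the intron sums were tested against each gene's own exonic counts, edgeR called 0 members and found 0 at an unadjusted p under 0.05.

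**Figure D3:**
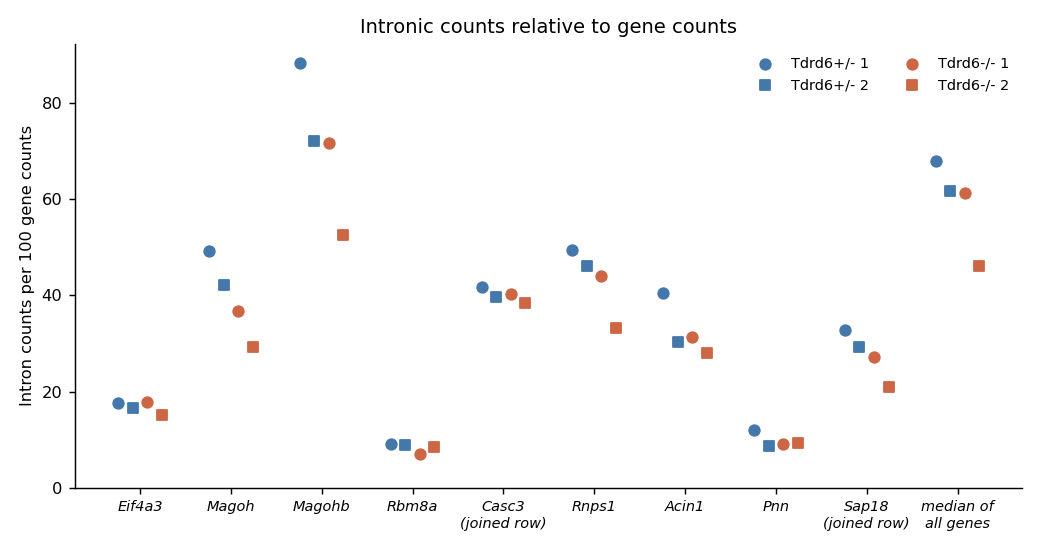
Intron counts per 100 gene counts for each of the 9 genes, and the median of 13030 genes at the right, in each sample (blue Tdrd6+/-, orange Tdrd6-/-). The Tdrd6-/- 2 sample lies lowest for 7 of the 9 genes and for the median gene, where it is at 46.0. The Casc3 ratio rests mostly on reads at Msl1.

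The distribution of intronic reads within each gene was then compared, as the share of a gene's intronic counts that fell on each intron. None of the members' introns was called: of 80 introns with at least 10 counts, 0 passed the false discovery rate in the likelihood ratio test fitted with DESeq2, and 0 had an unadjusted p under 0.05. Across all genes 561 of 28903 introns (1.94%) were called, and only 18 member introns had enough counts to receive an adjusted p. The edgeR usage test called 0 as well, with 2 at an unadjusted p under 0.05.

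Acin1 has the most introns, 23, and its intronic reads were concentrated on a few of them. Intron 18 (intron 6 in order of transcription) took 21.6% and 20.8% of the gene's intronic counts in Tdrd6+/- and 20.5% and 17.0% in Tdrd6-/-, from 768, 718, 717 and 480 counts. Intron 14 (intron 10 in order of transcription) took 12% and 10.6% against 9.46% and 8.97%, and intron 22 took 11.3% and 12.3% against 12.8% and 15%. In each case the genotypes did not overlap, narrowly so for intron 18, and none was called (adjusted p 0.747, 0.559 and 0.684). Over the 80 member introns tested, the share was above both Tdrd6+/- samples in both Tdrd6-/- samples for 17 and below them for 14. How often introns of all genes separated in this way was not computed, so these counts have no background to be read against. The smallest unadjusted p among Acin1 introns belonged to intron 5 (chr14:54645357-54645604), which is 248 bases long and near the end of the gene. Its counts of 23 and 23 in Tdrd6+/- and 40 and 31 in Tdrd6-/- gave a share of 0.655 ± 0.0137% against 1.12 ± 0.0318% (log2 usage 0.78, SE 0.41), too few for an adjusted p.

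**Figure D4:**
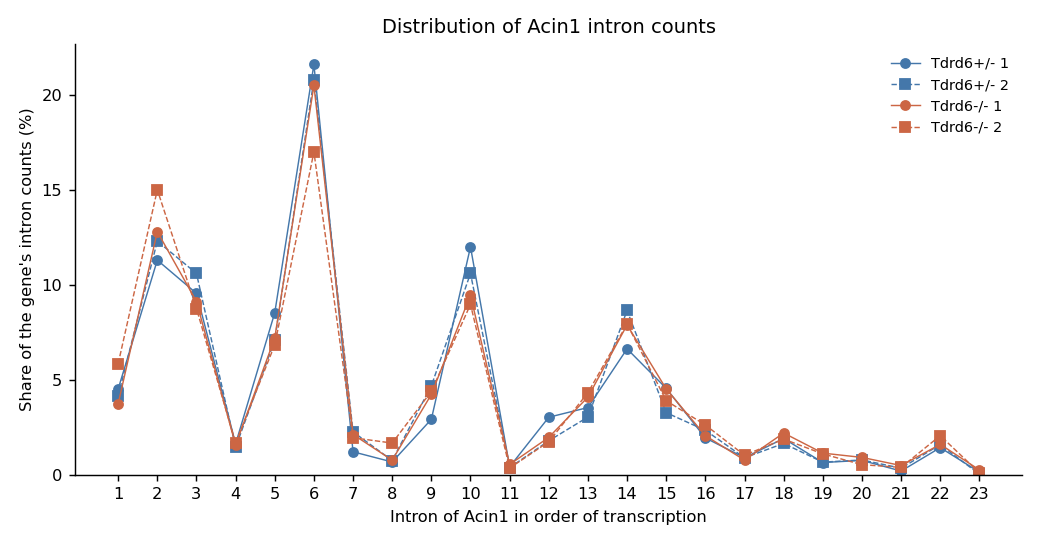
Share of the Acin1 intronic counts on each of its 23 introns, numbered in order of transcription, in each sample (blue Tdrd6+/-, orange Tdrd6-/-, dashed lines for replicate 2). The 4 profiles have the same peaks, the highest at intron 6 with 17.0% to 21.6%.

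In the core genes, the intron with the smallest p in Magoh was its first (chr4:107879946-107880892), with 31 and 43 counts in Tdrd6+/- and 53 and 57 in Tdrd6-/-. Its share of the intronic counts was 20.9% and 28.5% against 34% and 34.3%, higher in both Tdrd6-/- samples (log2 usage 0.66, SE 0.37). The junction that removes this intron was also read more often in both, with 80 and 88 spliced reads against 131 and 157. In Eif4a3, intron 9 (chr11:119296134-119297691) took 10.9% and 9.85% against 8.79% and 5.87% (log2 usage -0.56, SE 0.37), a lower share in both Tdrd6-/- samples, in which the summed introns of the gene were higher. Magohb intron 3, a gap of only 30 bases between annotated exons, held 17 and 13 counts against 9 and 8 (log2 usage -0.70, SE 0.65). No annotated junction removes this gap alone, and it lies within the intron of junction 20. Rbm8a intron 4 held 25 and 18 against 22 and 28 (0.44, SE 0.53), and Casc3 intron 4 held 235 and 192 against 215 and 134 (-0.36, SE 0.24, adjusted p = 0.672). At this depth differences of the size of these SEs were not detectable.

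In the peripheral genes, Rnps1 intron 4 had 55 and 44 counts in Tdrd6+/- and 40 and 45 in Tdrd6-/-, a share of 18.4 ± 0.503% against 14.3 ± 2.17% (log2 usage -0.44, SE 0.35). Pnn intron 1 (chr12:59067116-59067778) had 33 and 26 against 41 and 33, a share of 13.8 ± 1.40% against 18.4 ± 1.98% (log2 usage 0.51, SE 0.41). Sap18 intron 2 (chr14:57798850-57801493) carried nearly all intronic reads of its gene, 94.2% and 92.0% against 95.0% and 96.2% (log2 usage 0.67, SE 0.49, adjusted p = 0.707). In each of these genes the genotypes did not overlap for the intron named, which is the intron with the smallest p of its gene. Such separation was common among the 80 member introns tested, with 17 higher and 14 lower in both Tdrd6-/- samples. Without the share over all introns, it cannot be read as a trait of these genes.

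No exon segment or junction of the members was called either. Among the 7 genes with rows of their own, 135 segments, 66 annotated junctions and 4 unannotated junctions were tested, and 0 passed. Only 87 segments, 55 annotated junctions and 0 unannotated junctions of these received an adjusted p. Across all genes, 326 of 147700 features with an adjusted p (0.221%) were called. Of the member features tested, 1 had an unadjusted p under 0.05, and the edgeR usage test likewise called 0 with 1 under that value. With the joined rows kept, 189 segments, 93 annotated and 5 unannotated junctions of all 9 genes were tested and 0 were called. An adjusted p was given to 125, 73 and 0 of them. The feature with the smallest p was Acin1 junction 86 (chr14:54651859-54653213), a rare splice with 1 and 0 reads in Tdrd6+/- and 8 and 4 in Tdrd6-/- (log2 usage 3.47, SE 1.76, too few counts for an adjusted p).

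Further alternative splicing of Acin1 was well covered. An exon of 120 bases was included by 99 reads of junction 96 and 185 reads of junction 99 in Tdrd6+/- 1 and skipped by 68 reads of junction 97. The corresponding numbers were 139, 293 and 80 in Tdrd6+/- 2, 131, 247 and 104 in Tdrd6-/- 1, and 102, 225 and 95 in Tdrd6-/- 2. Inclusion, with the inclusion junctions averaged, was 67.6% and 73.0% in Tdrd6+/- and 64.5% and 63.2% in Tdrd6-/-, lower in both Tdrd6-/- samples (70.3 ± 3.79% against 63.9 ± 0.888%). The skipping junction was not called (adjusted p = 1.000 in DESeq2).

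Acin1 also uses a pair of acceptor sites 3 bases apart, and the 30 bases across each splice show what the choice adds to the mRNA; capitals mark the bases present only in the longer form (GENCODE M21, GRCm38, minus strand).
Acin1 junction 80: aaatctccgttgtctCAGctaccaaggggg
Acin1 junction 79: aaatctccgttgtctctaccaagggggtgc
Their introns are chr14:54646837-54648087 and chr14:54646834-54648087. Junction 80 was read 166 and 262 times in Tdrd6+/- and 254 and 217 times in Tdrd6-/-, and junction 79 was read 37 and 79 against 68 and 65 times. The shorter form made up 18.2% and 23.2% against 21.1% and 23%, so the longer form prevailed in all 4 samples and the genotypes overlapped. At a neighbouring pair of sites 36 bases apart, junction 77 took 23.9% and 29.0% against 26.3% and 26.4% of the reads of junctions 77 and 78, which also overlapped.

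Magohb transcripts either skip or include an exon of 200 bases after the first coding exon. The windows below, with the upstream exon in capitals, show the skipping splice (junction 24) and those that enter (junction 25) and leave (junction 23) the exon (GENCODE M21, GRCm38, minus strand).
Magohb junction 24: AGTTTCGGCCGGACGggaagcttagatatg
Magohb junction 25: AGTTTCGGCCGGACGctagcagaatcttaa
Magohb junction 23: ACTAAGAAAAACAAGggaagcttagatatg
The introns are chr6:131289448-131293071, chr6:131291941-131293071 and chr6:131289448-131291740. Junction 24 had 18 and 20 reads in Tdrd6+/- and 38 and 30 in Tdrd6-/-, junction 25 had 4 and 4 against 3 and 13, and junction 23 had 13 and 19 against 13 and 16. Skipping was the more frequent splice in every sample, at 67.9% and 63.5% against 82.6% and 67.4%. The genotypes overlapped on this measure by less than 1 percentage point, while the share of junction 24 in the gene's counts was higher in both Tdrd6-/- samples (log2 usage 0.69, SE 0.44). At these read numbers no difference was detectable.

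For Rbm8a, M21 lists a pair of forms that differ by 3 bases at the acceptor of the second intron, shown here because the gene also has a well-used unannotated junction; capitals mark the additional bases (GRCm38, plus strand).
Rbm8a longer form: gcggctttggctccgAAGaggggtcccgag
Rbm8a shorter form: gcggctttggctccgaggggtcccgagcgc
Their introns are chr3:96630362-96630476 and chr3:96630362-96630479. The annotated junction 8 was read 55 and 56 times in Tdrd6+/- and 55 and 62 times in Tdrd6-/-, and the unannotated junction 12 was read 51 and 44 against 60 and 58 times. Together they gave 106 and 100 against 115 and 120 reads, near the 120 and 110 against 122 and 157 reads of the next junction, 9. Junction 7 was also below junction 9, with 66 and 48 against 69 and 78 reads. Junction 12 is numbered without coordinates. Whether it is an alternative to junction 8, or one of the forms printed here, was therefore not established. If it is paired with junction 8, its share of both was 48.1% and 44.0% against 52.2% and 48.3% (46.1 ± 2.91% against 50.3 ± 2.72%), barely separated between genotypes.

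**Figure D5:**
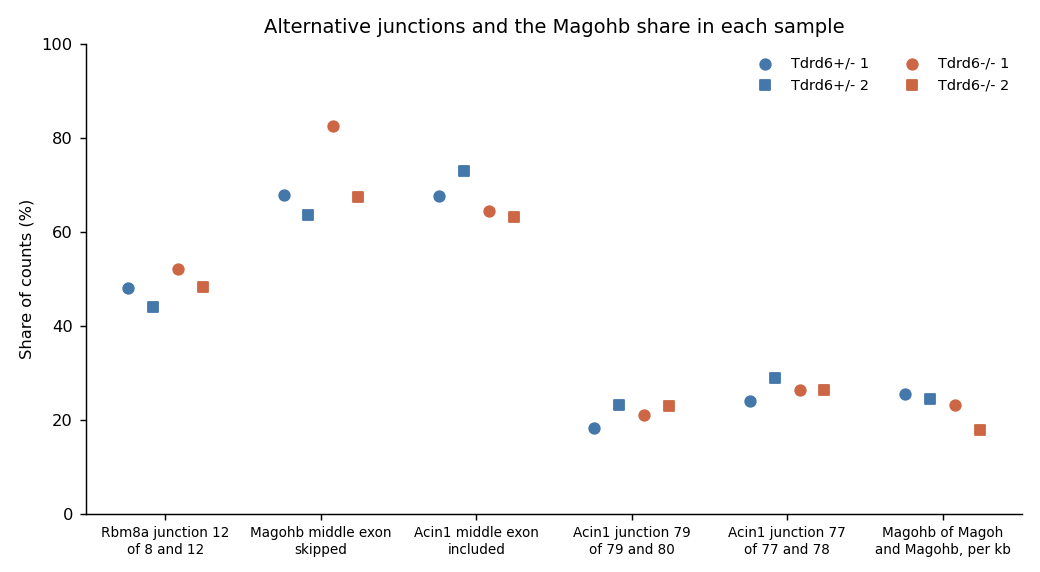
Share of counts (%) in each sample (blue Tdrd6+/-, orange Tdrd6-/-, squares for replicate 2) for alternative splices of Magohb and Acin1. Also shown are Rbm8a junction 12 as a share of junctions 8 and 12, and Magohb as a share of Magoh and Magohb per kilobase. Whether Rbm8a junctions 8 and 12 are alternatives was not established. Acin1 exon inclusion at 63.2% to 64.5% and the Magohb share at 17.9% to 23.2% in Tdrd6-/- lie below both Tdrd6+/- samples, and the gaps are of the order of the spread within a genotype.

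Of the other features with the smallest p of their gene, none passed the test. In Eif4a3, segment 13 made up 27.2 ± 1.84% against 24.7 ± 2.17% of the gene's counts (log2 usage -0.19, SE 0.13), and junction 33, which removes intron 9, made up 7.71 ± 0.609% against 8.79 ± 0.237% (0.21, SE 0.16). Its unannotated junction 35 had 22 and 22 against 24 and 31 reads, and its annotated junction 31 had none in any sample. In Magoh, segment 5 held 138 and 175 against 164 and 265 counts (-0.27, SE 0.22) and junction 8 held 25.6 ± 1.47% against 29.3 ± 2.27% of the gene's counts (0.26, SE 0.24). The features with the smallest p in the remaining genes were likewise not called: Rbm8a segment 3 (226 and 197 against 237 and 285 counts) and junction 11 (123 and 131 against 162 and 162), Magohb segment 10 (12 and 11 against 9 and 5, log2 usage -0.98, SE 0.73) and Acin1 segment 62 (53 and 51 against 43 and 34, -0.52, SE 0.34). Both unannotated junctions of Acin1 were read at low levels, 29 and 21 against 37 and 39 for junction 103 and 22 and 35 against 23 and 43 for junction 104.

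In Pnn, the last segment, an exon piece of 2573 bases, drew 66.7% to 70.7% of the gene's counts, and junction 17 just before it had 71 and 69 reads in Tdrd6+/- and 91 and 92 in Tdrd6-/- (log2 usage 0.34, SE 0.25, adjusted p = 1.000). Pnn segment 8, next to that junction, made up 11.0 ± 1.04% against 12.4 ± 0.239%. In Rnps1, junction 15 had 49 and 20 reads against 21 and 62, so the replicates of each genotype disagreed more than the genotypes did. Rnps1 junction 14 had 231 and 163 against 247 and 263 (log2 usage -0.15, SE 0.19), and segment 9 had 10 and 3 against 3 and 5. Casc3 junction 63 (48 and 74 against 86 and 81 reads) and segment 23 (60 and 78 against 91 and 91 counts) had the smallest p among Casc3 features, neither of them called.

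Sap18 differed between the Tdrd6+/- samples themselves. Its long segment 16 drew 358 counts in Tdrd6+/- 1 and 248 in Tdrd6+/- 2, which was 56.2% and 36.2% of the gene's counts, compared with 39.9% and 35.8% in Tdrd6-/-. Spliced reads went the other way, with 143 reads of junction 23 in Tdrd6+/- 1 and 248, 289 and 326 in Tdrd6+/- 2, Tdrd6-/- 1 and Tdrd6-/- 2. Tdrd6+/- 1 alone thus held fewer spliced Sap18 reads, and the gene count, which was nearly equal in the Tdrd6+/- samples, did not show it. Segment 14 had the smallest p, with 66 and 54 against 53 and 55 counts (9.12 ± 1.75% against 6.35 ± 0.166%, log2 usage -0.56, SE 0.31), and junction 22 had 10 and 28 against 35 and 31.

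Around the complex, genes of nonsense-mediated decay fell in part. Of 10 decay genes 4 were called lower and 0 higher, by edgeR and by DESeq2, where edgeR called 3.78% of all genes lower (median log2 fold change -0.13, all genes 0.01). Smg1, the kinase that phosphorylates UPF1, was counted 21974 and 21964 times in Tdrd6+/- and 18649 and 15002 times in Tdrd6-/- (log2 fold change -0.62, SE 0.14, adjusted p = 0.0120). Upf2, which bridges UPF1 and the exon junction complex through UPF3 proteins, had 3702 and 3970 against 3297 and 2825 counts (-0.56, SE 0.13, adjusted p = 0.0209). The helicase gene Upf1 had 8761 and 10436 against 7915 and 7654 (-0.54, SE 0.13, adjusted p = 0.0214). These 3 genes were lower in both Tdrd6-/- samples, and all 3 lost the call without Tdrd6-/- 2 (adjusted p 0.341 to 0.525) and without the filter on low counts (0.229 to 0.250); Upf1 lost it also without Tdrd6-/- 1 (0.109). Their log2 fold changes stayed negative under all 9 alternatives, from -0.80 to -0.46 for Smg1, -0.69 to -0.44 for Upf2 and -0.60 to -0.45 for Upf1.

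A mixed list of 8 genes held Cwc22, Cwc27, Pym1, Slu7, Srsf1, Srrm1 and the helicase paralogs Eif4a1 and Eif4a2. It covers loading and recycling of the complex but also splicing factors. On it 1 gene was called lower and 0 higher (median log2 fold change 0.00). This was Srrm1, a splicing coactivator that binds the complex, with 3343 and 3387 counts in Tdrd6+/- and 2414 and 1987 in Tdrd6-/- (log2 fold change -0.85, SE 0.14, adjusted p = 0.000859). Its call was lost without the filter on low counts (adjusted p = 0.108) and held when any single sample was left out, and the log2 fold change lay between -1.01 and -0.70 under all 9 alternatives. Among 13 measured genes for mRNA export, edgeR called 0, with 0 at an unadjusted p under 0.05, DESeq2 called 0, and the median log2 fold change was 0.10. The widest estimates on that list belonged to the THO complex genes Thoc6 (320 and 286 against 391 and 456 counts, log2 fold change 0.24, adjusted p = 0.673) and Thoc2 (933 and 1023 against 1605 and 1058 counts, 0.21, adjusted p = 0.674), and Thoc2 rested on Tdrd6-/- 1, without which it was -0.13.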

How the data were processed

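The authors aligned paired-end fragments of rRNA-depleted, strand-specific libraries to mm10 (GRCm38) with GSNAP, annotated them with Ensembl, and deposited raw counts per gene, exon segment, junction and intron for each sample; bcl2fastq 1.8.4 is in the submitters' processing notes, and the counter is not given in the sources used here. Genotype and replicate were taken from the sample titles.

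Gene counts and summed intron counts were tested with edgeR 4.0.16 in R 4.3.3 (TMM, filterByExpr, quasi-likelihood test, Benjamini-Hochberg adjustment over all genes, false discovery rate 0.1), without a replicate block. CPM are TMM-scaled. Usage of introns, segments and junctions was tested with DESeq2 1.42.0: each feature with at least 10 counts and the remainder of its gene entered a likelihood ratio test of the interaction with genotype, with independent filtering. Dispersions followed a trend over the feature's own mean with 1 round of fitting, a setting chosen after tests on simulated data. Joined gene rows were left out of the segment and junction test, and member rows in them were read from a fit that kept them. A fragment can count on several features of a gene. Log2 usage is Tdrd6-/- over Tdrd6+/-.

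Features were placed by their number on GENCODE M21 where the counts of features were equal. Pnn was placed on the only transcript with as many exons as deposited segments. Rbm8a was placed only at introns that all such transcripts share, and Rnps1 was not placed. Per-kilobase levels use all exons of the gene, or the principal transcript with the most exons. Likeness was computed on log2(CPM + 0.5) over genes averaging at least 50 counts.

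The members and lists were chosen with earlier results of these data known. For each member, the text names the intron, segment and junction with the smallest unadjusted p; of the other lists, genes with an adjusted p under 0.1 or the 2 with the widest estimates; and the 3 genes most alike. Other features of the members were named after their values were seen. Magoh-ps1 and Zc3h11a were not analysed here. A gene of the decay list that the rule selects is not reported here. Alternatives were other normalizations, filters, tests and dispersions, a replicate block, and leaving out each sample.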

Additional observations from a re-analysis of the deposited data

How the results depend on the processing

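Every alternative left the number of members called at 0 in gene counts, intron usage and exon and junction usage, and in summed introns the number ranged from 0 to 1 when single samples were left out, with Eif4a3 called without Tdrd6-/- 1. The counts over all genes moved more. For gene counts they were 794 in the fit reported, 75 without the filter on low counts and 257 to 1064 when single samples were left out. For summed introns they were 214, with 378 by the DESeq2 test, 402 against exonic counts and 4 to 951 with single samples left out. For intron usage they were 561, with 1855 after 10 rounds of dispersion fitting, 1 with DESeq2's default dispersions, 2 by the edgeR usage test and 4 to 1175 with single samples left out. For exon and junction usage they were 326, with 1975, 61 and 80 under the same settings and 49 to 763 with single samples left out. The extra dispersion settings were chosen after seeing the data. The cause of these differences was not tested.

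Same-numbered samples did not deviate together (r = -0.1067 for genes, -0.0855 for summed introns, 0.0498 for introns), and the numbers were not taken as pairs. With the replicate block, 1046 genes, 189 intron sums, 881 introns and 301 segments and junctions were called, and no member. With the pairing crossed, an alternative chosen after seeing the data, 1175, 82, 255 and 279 were called.

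Directions turned only for values within 0.23 of 0 in the fit reported. In gene counts, Magohb became 0.00071 without the filter and ranged from -0.06 to 0.02 with single samples left out, Rbm8a from -0.20 to 0.13 and Thoc2 from -0.13 to 0.50. In summed introns, Casc3 became -0.02 without its intron 1, and against exonic counts Magoh became -0.18, Rnps1 -0.02, Acin1 0.06, Pnn 0.14 and Sap18 -0.08. With single samples left out, Casc3 ranged from -0.04 to 0.22, Pnn from -0.27 to 0.22, Rbm8a from -0.38 to 0.43, Magoh from -0.07 to 0.42 and Sap18 from -0.01 to 0.13. In usage, Rbm8a junction 11 ranged from -0.0035 to 0.41 and Rnps1 junction 14 from -0.31 to 0.04. None of these values was called. With 2 samples per genotype and few counts on most introns, only 18 of 81 member introns could receive an adjusted p.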
